A study of Mus musculus with 7 samples.

Results

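The nuclear-encoded subunits of respiratory chain complexes II to V were followed in small RNA libraries from crude heart mitochondria of mice with and without Tefm, the mitochondrial transcription elongation factor. The genes were taken by symbol from the features typed as protein coding: Sdha to Sdhd of complex II, the Uqcr genes and Cyc1 of complex III, the structural Cox genes of complex IV and all genes whose symbol begins with Atp5 for complex V. This gave 48 genes of 49584 features and of 21960 nuclear protein-coding genes, with 4 in complex II, 9 in complex III, 18 in complex IV and 17 in complex V. Of the 48 genes, 44 had at least 1 count and 4 had none (Atp5g2, Cox6b2, Cox7b2 and Cox8c). The symbol rule also took in Cox7a2l, a protein linked to the assembly of supercomplexes, and Atp5s and Atp5sl, which are not counted among the structural subunits of the synthase.

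Complex II (succinate dehydrogenase) feeds electrons from the citric acid cycle into the ubiquinone pool, complex III passes them to cytochrome c, complex IV (cytochrome c oxidase) hands them to oxygen, and complex V (ATP synthase) uses the proton gradient so formed to make ATP. Complex II is built wholly from nuclear genes, whereas complexes III, IV and V each combine nuclear-encoded subunits with a few encoded in mitochondrial DNA. Nuclear subunits are translated in the cytosol, partly by ribosomes at the mitochondrial surface, and imported. In heart and skeletal muscle, complex IV uses muscle isoforms of some small subunits in place of the ubiquitous ones.

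The 3 control libraries came from L/L mice (genotype Tefm +/+ in the labels), whose Tefm gene carries a loxP-flanked exon. The 4 knockout libraries came from L/L, cre mice (Tefm -/-), which have the same floxed gene and also express cre from the promoter of muscle creatine kinase, a promoter of striated muscle, so heart cells of other kinds may keep the exon. The labels give no age, sex or strain. The design text counts 4 control mice, and 3 control libraries were at hand. A library was counted as 1 mouse on the strength of that text; were this not so, the p-values would measure the spread between libraries only. A small RNA kit was used, so each count at a subunit gene is a fragment of its mRNA that remained with crude mitochondria, and fewer cells of a type cannot be told apart from less RNA per cell.

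Library totals ran from 973835 to 2570739 counts, and nuclear protein-coding genes took a small and uneven part of them, 3.27%, 6.23% and 3.92% in controls 1 to 3 and 2.28%, 3.43%, 7.40% and 18.2% in knockouts 1 to 4. The heart origin was checked with 9 cardiomyocyte markers, which all had enough counts to be tested; their summed level was 4578 to 6787 CPM (counts scaled to library size with TMM factors) in controls and 2504 to 4265 CPM in knockouts, without overlap, and all 9 had negative fold changes with none called. Mitochondrially encoded RNA gave between 667755 and 2191774 counts in a library. Control 1 stood apart from the other controls. Its mt-Co1 level was 32619 CPM, against 158840 and 149480 CPM in controls 2 and 3. A chi-square statistic over genes, per degree of freedom, was 386.4 to 617.6 between control 1 and the knockouts. Against controls 2 and 3 it was 848 and 690.5. The statistic grows with depth, and controls 2 and 3 were the deepest libraries, so it does not show which libraries control 1 is nearest to. Tefm itself had 3 counts over all controls and 3 over all knockouts, which at this depth is too few to show its loss or to check the labels.

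The results below turn on the isoform pairs of complex IV, and the DNA just upstream of these genes is shown because the muscle and ubiquitous isoforms shown differ there in their content of CG dinucleotides. Each window of 220 bases runs from 250 to 31 bases before the RefSeq transcription start (GRCm38.p6), written 5′ to 3′ on the gene's strand with every CG in capitals. Cox7a1 lies at chr7:30183921-30184140 (plus strand), Cox8b at chr7:140900477-140900696, Cox7a2 at chr9:79759884-79760103, Cox8a at chr19:7217647-7217866 and Cox6a1 at chr5:115348989-115349208 (all minus strand). Cox6a2, the muscle partner of Cox6a1, is named only.
Cox7a1: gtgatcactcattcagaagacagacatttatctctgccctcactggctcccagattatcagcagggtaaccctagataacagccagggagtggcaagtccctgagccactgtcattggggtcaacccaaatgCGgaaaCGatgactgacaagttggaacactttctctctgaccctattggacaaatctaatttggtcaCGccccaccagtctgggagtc
Cox8b: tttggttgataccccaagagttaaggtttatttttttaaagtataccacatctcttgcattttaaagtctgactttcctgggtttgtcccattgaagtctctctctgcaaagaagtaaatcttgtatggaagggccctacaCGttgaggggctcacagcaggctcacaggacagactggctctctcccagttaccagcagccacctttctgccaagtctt
Cox7a2: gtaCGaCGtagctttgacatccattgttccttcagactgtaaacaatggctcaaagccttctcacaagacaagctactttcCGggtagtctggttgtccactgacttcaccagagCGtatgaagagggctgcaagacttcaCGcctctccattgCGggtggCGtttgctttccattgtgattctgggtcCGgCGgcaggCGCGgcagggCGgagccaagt
Cox8a: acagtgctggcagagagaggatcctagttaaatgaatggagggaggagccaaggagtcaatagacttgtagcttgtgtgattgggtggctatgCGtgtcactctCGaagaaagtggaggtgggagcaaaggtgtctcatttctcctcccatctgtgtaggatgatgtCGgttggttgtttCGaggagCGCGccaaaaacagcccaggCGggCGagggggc
Cox6a1: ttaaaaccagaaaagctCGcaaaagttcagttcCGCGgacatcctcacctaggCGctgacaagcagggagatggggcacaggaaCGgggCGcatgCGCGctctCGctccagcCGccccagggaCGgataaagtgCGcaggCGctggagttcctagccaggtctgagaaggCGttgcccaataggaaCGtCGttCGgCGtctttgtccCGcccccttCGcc

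The windows of the muscle isoforms held 3 CG (Cox7a1) and 1 CG (Cox8b), and those of the ubiquitous isoforms held 12 (Cox7a2), 8 (Cox8a) and 20 (Cox6a1). Across 32851 such windows the median was 5, so the muscle isoforms shown lay below it and the ubiquitous ones above it. The share of windows with as few CG was 42.2% for Cox7a1, 21.8% for Cox8b, 74.0% for Cox7a2, 64.2% for Cox8a and 88.6% for Cox6a1. Cox7a1 and Cox8a were thus not far from the median. No binding or methylation was measured at these windows. Of the 48 genes, 34 had a window in the RefSeq table.

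The levels of subunit fragments were compared between genes per length, as mean CPM over the 7 libraries per kb of exon. Complex V held both the highest and the lowest of the 44 genes with counts. Atp5b, the catalytic beta subunit of ATP synthase, was highest at 60.4 CPM per kb, ahead of Cox6a2 at 49.4, Atp5a1 (the alpha subunit) at 47.8, Cox4i1 (the ubiquitous isoform of subunit 4) at 34.8 and Cox6b1 at 29.4. In complex III the iron-sulfur protein Uqcrfs1 led at 21.9 CPM per kb, and in complex II the flavoprotein Sdha led at 18.1. Atp5l (subunit g) was lowest at 0.0753 CPM per kb. Among the 3 genes for subunit c of the rotor, which encode the same mature protein, Atp5g3 stood at 17.7 CPM per kb, Atp5g1 at 0.381 and Atp5g2 had no count. The merged exons were long for Atp5l (6443 bases) and Atp5g1 (4912 bases), and how multiply mapped reads were counted is not known. The part of either in these low levels was not tested.

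**Figure D1:**
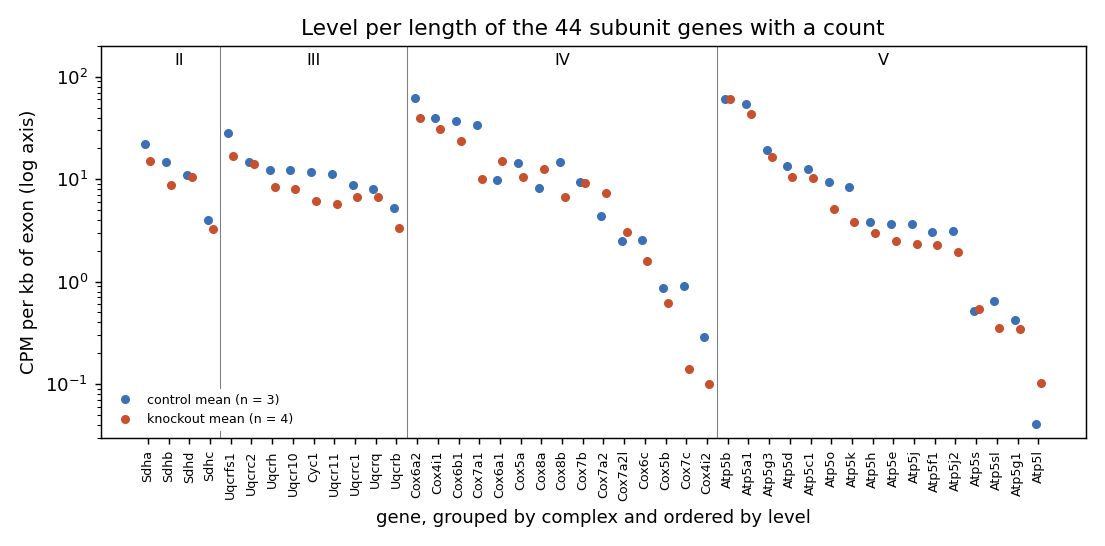
Mean CPM per kb of exon (log axis) of the 44 subunit genes with counts, ordered by level within complexes II, III, IV and V, with control means (n = 3) in blue and knockout means (n = 4) in red. Complex V spans the widest range, from Atp5b at 60.4 to Atp5l at 0.0753 over all 7 libraries, and in complex IV the points of Cox7a1 lie far apart.

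Gene by gene, 1 subunit passed the test across all genes, Cox7a1 of complex IV, which was lower in knockouts. Of 48 genes, 26 had enough counts to be tested (4 of complex II, 6 of III, 8 of IV and 8 of V), and 18 others had between 2 and 83 counts in all. With the edgeR quasi-likelihood test and Benjamini-Hochberg adjustment over 1505 genes, 1 of the 26 fell and 0 rose, against a background of 1.73% of all genes tested called lower and 5.25% called higher (6.98% in either direction). With Cox7a1, 6 of the 26 (23.1%) had an unadjusted p under 0.05, a share like the 23.5% of all genes tested. The other 5 were Cyc1, Atp5o, Uqcrfs1, Sdhb and Cox6a2. DESeq2 called Cox7a1 and Cyc1, both lower, against a background of 6.64% called lower and 8.70% called higher (15.3% in all).

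As a description of the whole set, 25 of the 26 fold changes were negative and Cox6a1 was the exception. Their median log2 fold change was -0.36, beside 0.00 for the 1209 other nuclear protein-coding genes tested, of which 607 were negative. The medians by complex were -0.47 for II, -0.47 for III, -0.54 for IV and -0.31 for V, and 7 of the 26 values lay within 1 SE of 0. A gene can pass the filter through 1 group alone, as Cox7a1 and Atp5o did through controls, where they are high, and 5 genes, among them Cox6a1, through knockouts. Without the filter, all 44 genes with counts had a median of -0.46 and 38 were negative, beside -0.04 for 12847 other nuclear protein-coding genes, and Cox7a1 was again the 1 gene called (edgeR adjusted p = 0.0241, against a background of 0.423% called lower and 0.790% called higher, 1.21% in all).

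These directions depend on the scaling between libraries. With library totals, microRNA genes or mitochondrially encoded genes as the scale, the median of the tested subunits was 0.48, 0.27 and 0.80 and that of other nuclear protein-coding genes 1.02, 0.79 and 1.26, and no subunit was called by edgeR and 0 had an unadjusted p under 0.05. The background over all genes was 0.532%, 0.00% and 3.52% called in either direction, and 9.70%, 1.53% and 20.2% at that unadjusted p. Relative to the median of all genes tested under each scale (0.93, 0.68 and 1.25), the subunits were at -0.45, -0.41 and -0.46, and at -0.38 with TMM. Every fold change and CPM value given below is on the TMM scale, and so is every overlap of groups in CPM.

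**Figure D2:**
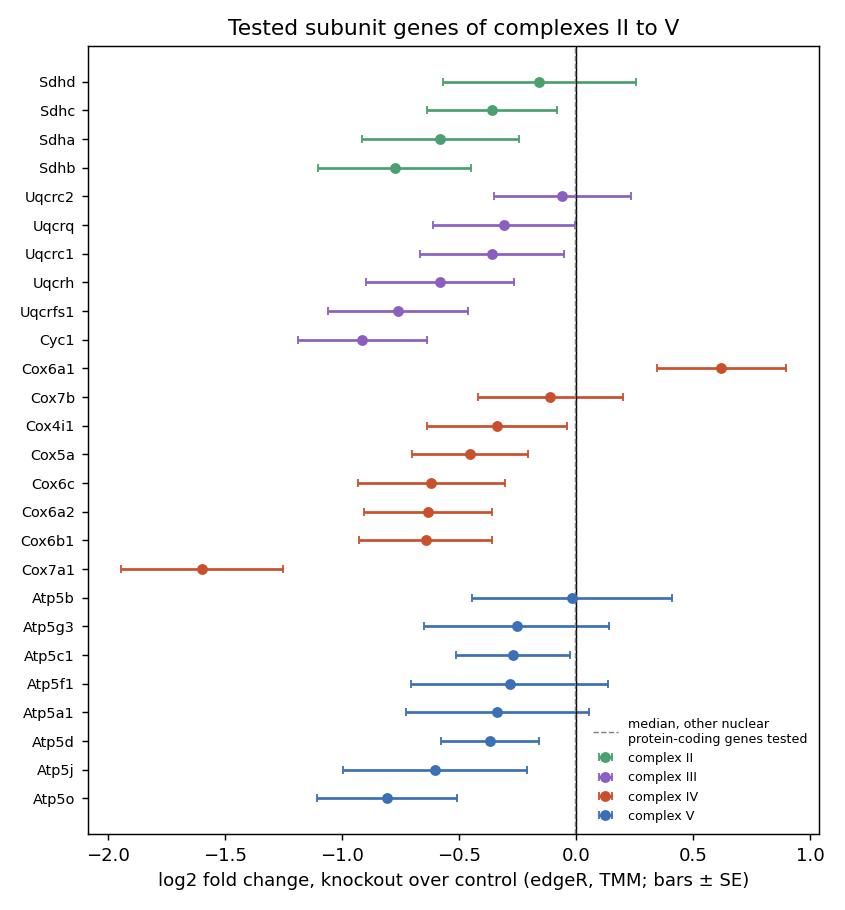
Log2 fold change, knockout over control, of the 26 subunit genes tested (edgeR, TMM scaling; bars are SE), coloured by complex, with the median of other nuclear protein-coding genes as a dashed line. All points but Cox6a1 lie left of 0, and Cox7a1 lies farthest left at -1.60.

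In complex II, no subunit passed the test. Sdha, the flavoprotein that oxidises succinate, was at 109, 73.3 and 93.7 CPM in controls 1 to 3 and at 67.2, 58.2, 58.1 and 62.1 CPM in knockouts 1 to 4. Each knockout lay below each control, yet the log2 fold change of -0.58 ± 0.33 (SE) did not pass (edgeR adjusted p = 0.334). Sdhb, the iron-sulfur subunit that carries electrons onward, was at 41.3, 25.1 and 33.5 CPM in controls and at 29.0, 18.1, 13.9 and 17.7 CPM in knockouts. Its groups overlapped through knockout 1, which lay above control 2 (log2 fold change -0.78 ± 0.33, adjusted p = 0.201). Of the membrane anchors, Sdhc had -0.36 ± 0.28 and Sdhd had -0.16 ± 0.41.

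In complex III no subunit passed the test, and of the 6 tested Cyc1 and Uqcrfs1 had the most negative fold changes. Cyc1, cytochrome c1, was at 33.2, 23.5 and 19.8 CPM in controls and at 13.8, 10.04, 13.2 and 16.1 CPM in knockouts. The groups did not overlap, and the log2 fold change was -0.91 ± 0.28 (SE; edgeR adjusted p = 0.0881). Uqcrfs1, the Rieske iron-sulfur protein, was at 44.3, 34.1 and 38.3 CPM in controls and at 33.6, 20.1, 19.2 and 19.9 CPM in knockouts. Here knockout 1 came close to the lowest control, and the log2 fold change was -0.76 ± 0.30 (edgeR adjusted p = 0.166). The core proteins had -0.36 ± 0.31 (Uqcrc1) and -0.06 ± 0.29 (Uqcrc2). The small subunits Uqcrh and Uqcrq had -0.58 ± 0.32 and -0.31 ± 0.30. In the fit without the count filter, the small subunit Uqcr11 (53 counts in all) was at -1.17, below Cyc1 and Uqcrfs1 in the same fit.

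In complex IV, Cox7a1, the muscle isoform of subunit 7a (chr7:30184144-30186078, plus strand, GENCODE M21 on GRCm38), fell in knockouts (log2 fold change -1.60 ± 0.35, SE; edgeR adjusted p = 0.0370). It had 26, 30 and 23 counts in controls and 3, 4, 9 and 22 counts in knockouts, or 26.2, 11.8 and 15.7 CPM against 4.58, 4.02, 5.95 and 6.94 CPM. Each knockout lay below each control, from a mean of 17.9 ± 7.44 CPM (SD, n = 3) to 5.37 ± 1.32 CPM (SD, n = 4). The call rests on 117 counts in all, in a gene that entered the test through its control level, and did not hold without any 1 of control 2 (adjusted p = 0.0694), control 3 (0.0910), knockout 1 (0.0538), knockout 2 (0.127), knockout 3 (0.0930) or knockout 4 (0.0609), each by edgeR. Without control 1 it held (-1.45 ± 0.28; edgeR adjusted p = 0.0486, with 2.18% of all genes called). Of all genes tested, 0.00% were called by edgeR without control 2 or without control 3 (395 and 407 genes had an unadjusted p under 0.05), and 4.61%, 1.71%, 2.41% and 4.50% without knockouts 1 to 4 in turn.

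The other subunits of complex IV did not pass the test. Cox4i1 was at 63.4, 54.9 and 65.7 CPM in controls and at 42.8, 47.2, 46.2 and 57.4 CPM in knockouts, so knockout 4 reached into the control range (log2 fold change -0.34 ± 0.30). Cox5a, a matrix-side subunit, was at 29.95 ± 2.04 CPM (SD, n = 3) in controls and 21.9 ± 4.01 CPM (SD, n = 4) in knockouts, with no overlap (-0.45 ± 0.25; edgeR adjusted p = 0.304). Cox6b1, which faces the intermembrane space and was singled out after its values were seen, was at 26.1 ± 4.59 and 16.9 ± 3.96 CPM, also with no overlap (-0.64 ± 0.28; edgeR adjusted p = 0.224). Cox6c had -0.62 ± 0.32 and Cox7b had -0.11 ± 0.31. Cox5b, Cox7c and Cox4i2 had 13, 6 and 2 counts in all and Cox7a2l had 45, below the count filter.

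Within the isoform pairs of complex IV, the muscle isoform was lower against its ubiquitous partner in knockouts in all 3 pairs with enough counts. A ratio of 2 genes within a library does not depend on how libraries are scaled, and it was formed as log2 of the counts, each with 0.5 added. For subunit 7a, Cox7a2 (chr9:79755361-79759878, minus strand) had 5, 12 and 4 counts in controls and 5, 9, 6 and 23 in knockouts beside the Cox7a1 counts above. The ratio of Cox7a1 to Cox7a2 was 2.27, 1.29 and 2.38 in controls and -0.65, -1.08, 0.55 and -0.06 in knockouts. In counts, the muscle isoform thus outnumbered the ubiquitous one in every control and in 1 of 4 knockouts. Exon lengths differ, 535 bases for Cox7a1 and 944 for Cox7a2. Per kb, the mean of Cox7a1 stayed above that of Cox7a2 in both groups. These means were 33.4 and 4.405 CPM in controls and 10.04 and 7.39 CPM in knockouts. The log2 ratios of the groups did not overlap. The mean went from 1.98 ± 0.60 (SD, n = 3) to -0.31 ± 0.71 (SD, n = 4), a 4.90-fold lower ratio (two-sided exact permutation test, p = 0.0286, adjusted p = 0.0429 over 3 pairs).

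For subunit 6a, Cox6a2 (chr7:128205435-128206387, minus strand) had 46, 97 and 62 counts in controls and 16, 21, 50 and 94 in knockouts. Cox6a1 (chr5:115345642-115348981, minus strand) had 6, 15 and 13 counts in controls and 5, 12, 19 and 31 in knockouts. The muscle isoform was the more abundant in every library, making up 88.5%, 86.6% and 82.7% of the pair in controls and 76.2%, 63.6%, 72.5% and 75.2% in knockouts. The log2 ratio went from 2.57 ± 0.32 (SD, n = 3) to 1.33 ± 0.38 (SD, n = 4), a 2.36-fold lower ratio without overlap (two-sided exact permutation test, p = 0.0286, adjusted p = 0.0429). Taken singly, Cox6a2 had -0.63 ± 0.27 as its log2 fold change (edgeR adjusted p = 0.213) and Cox6a1, which entered the test through knockouts, had 0.62 ± 0.27 (edgeR adjusted p = 0.224), so neither passed.

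For subunit 8, both genes were below the count filter of the gene-wise test. Cox8b (chr7:140898945-140900446, minus strand), the muscle isoform, had 6, 13 and 7 counts in controls and 2, 3, 3 and 5 in knockouts. Cox8a (chr19:7215153-7217616, minus strand) had 6, 13 and 6 counts in controls and 8, 5, 11 and 20 in knockouts. The 2 isoforms thus had similar counts in controls, with a log2 ratio of 0.07 ± 0.12 (SD, n = 3). In knockouts Cox8b had the fewer counts in each library, with -1.51 ± 0.58 (SD, n = 4). The ratio was 2.98-fold lower without overlap, and it did not pass (two-sided exact permutation test, p = 0.0571, adjusted p = 0.0571). Exon lengths differ, 360 bases for Cox8b and 619 for Cox8a. Per kb, the means of Cox8b and Cox8a were 14.7 and 8.21 CPM in controls and 6.68 and 12.4 CPM in knockouts. With 5 added to each count in place of 0.5, the ratio was 1.90-fold lower for Cox8b/Cox8a, 3.04-fold for Cox7a1/Cox7a2 and 2.10-fold for Cox6a2/Cox6a1. Without control 1 the same ratios were 3.06-fold, 4.43-fold and 2.14-fold lower.

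The smallest p that 35 splits of 3 and 4 libraries allow is 0.0286. When the smaller tail was doubled instead of counting splits with at least as large an absolute difference, all 3 pairs had p = 0.0571 (exact permutation test), so the calls of the first 2 pairs rest on that convention. For subunit 4, Cox4i2, an isoform known for its induction at low oxygen, had 1 count in controls and 1 in knockouts beside 299 and 327 counts of Cox4i1, and no test was made. Markers of other cell types were set against the summed cardiomyocyte markers, per count. Fibroblast markers came to 3.46% to 9.03% of them in controls and 5.99% to 19.1% in knockouts, with none of 5 genes at 0, and endothelial markers to 1.08% to 2.70% and 1.04% to 2.01%, with none of 5 at 0. Smooth muscle markers came to 0.252% to 0.418% and 0.175% to 0.422% (none of 3 at 0), white blood cell markers to 0.371% to 0.762% and 0.396% to 0.559% (S100a8 at 0), and erythroid markers to 0.204% to 0.418% and 0.175% to 0.566% (none of 5 at 0). These ranges relative to cardiomyocyte markers overlapped. In CPM, the cardiomyocyte sum did not overlap, as given above, and neither did that of white blood cell markers, at 25.2 to 34.9 CPM in controls and 9.91 to 19.9 CPM in knockouts. Of single markers, those tested were 5 of 5 for fibroblasts, 4 of 5 for endothelium, 2 of 6 for white blood cells, 1 of 3 for smooth muscle and 0 of 5 for erythroid cells. Among these, Cd74 (white blood cells) and Acta2 (smooth muscle) were called lower by edgeR and no other was called. Of all genes tested, 1.73% were called lower. The part of these markers in the isoform ratios was not tested.

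**Figure D3:**
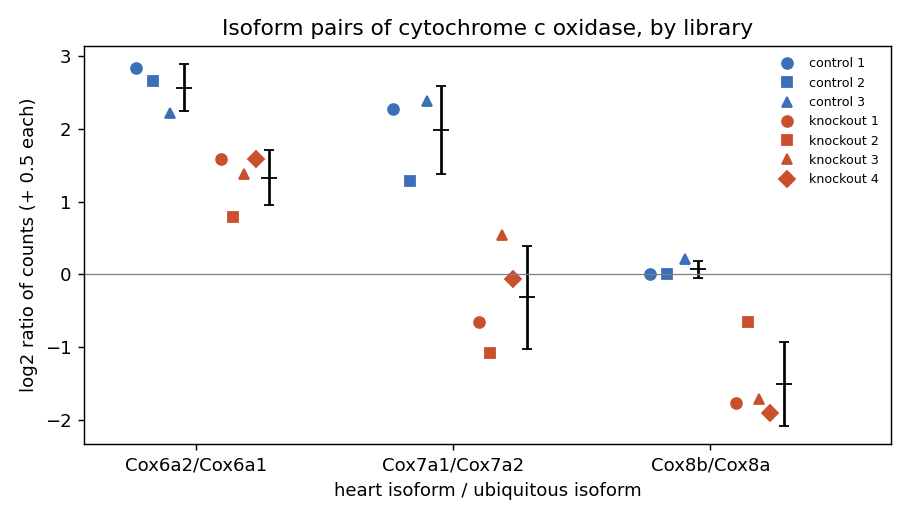
Log2 ratio of muscle to ubiquitous isoform counts (0.5 added to each) in each library for 3 pairs of complex IV subunits; symbols mark libraries, and black bars give the group mean and SD. In each pair the 4 knockouts lie below the 3 controls, with means of 1.33 against 2.57, -0.31 against 1.98 and -1.51 against 0.07.

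In complex V no subunit passed the test, and the fold change of the catalytic beta subunit was close to 0. Atp5b (chr10:128083273-128090391, plus strand) was at 302, 228 and 242 CPM in controls and at 273, 269, 233 and 242 CPM in knockouts. The knockouts lay within the control range, and the log2 fold change was -0.02 ± 0.43 (SE; edgeR adjusted p = 0.986). Atp5a1, the alpha subunit, was at 189, 153 and 169 CPM in controls and at 157, 121, 136 and 124 CPM in knockouts, with overlap (-0.34 ± 0.39). Atp5c1, the gamma subunit of the central stalk, had -0.27 ± 0.24, and Atp5g3, the subunit c gene with most counts here, had -0.25 ± 0.39.

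Of the 8 genes of complex V tested, Atp5o had the most negative fold change; in the fit without the count filter Atp5k, Atp5sl and Atp5j2, with 40, 18 and 83 counts in all, were lower still. Atp5o, the oligomycin sensitivity-conferring protein at the top of the outer stalk, was at 26.2, 14.1 and 15.1 CPM in controls and at 9.16, 8.03, 11.9 and 11.4 CPM in knockouts. Its groups did not overlap, and the log2 fold change was -0.81 ± 0.30 (SE; edgeR adjusted p = 0.149). A second gene model of the same symbol shares 243 exon bases with it in GENCODE M21, and how such reads were assigned is not known here. Atp5d, the delta subunit of the central stalk, was at 28.2, 25.1 and 25.3 CPM in controls and at 19.9, 20.1, 20.5 and 20.5 CPM in knockouts. This was a narrow spread within both groups, and the fold change of -0.37 ± 0.21 did not pass (edgeR adjusted p = 0.328). Atp5j (coupling factor 6) had -0.60 ± 0.39 and Atp5f1 (subunit b) had -0.28 ± 0.42. Exons of both overlap a gene on the opposite strand (Gabpa and Wdr77), as do exons of Cox6c (Vps13b), Cox4i1 (Emc8), Uqcrc2 (Pdzd9), Atp5a1 (Haus1), Cox6a2 (Itgad), Cox5a (Gm26631) and Atp5d (Cbarp), and reads of such partners cannot be told apart if counting ignored strand. Over all libraries, the counts given to the partners themselves were 64 for Vps13b, 44 for Gabpa, 23 for Emc8, 8 for Haus1, 7 for Wdr77 and 5 for Pdzd9. Itgad, Gm26631 and Cbarp had 0.

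Counted by overlap of CPM on the TMM scale instead of by test, 9 of the 26 subunits tested lay lower in every knockout than in every control and 0 lay higher. These were Sdha, Cyc1, Uqcrfs1, Cox5a, Cox6a2, Cox6b1, Cox7a1, Atp5d and Atp5o. Among all genes tested the background was 9.90% lower and 14.0% higher, and among other nuclear protein-coding genes tested 10.4% lower and 16.9% higher. Over the 44 subunits with counts, Cox8b joined them, 10 lower and 0 higher, beside 3.98% lower and 3.80% higher among all genes with a count and 4.43% and 4.49% among other nuclear protein-coding genes with a count. These overlaps were not recounted under the other scales, and the directions of fold changes depended on the scale, as given above. The summed cardiomyocyte markers, which also did not overlap, moved in the same direction, and their part in these counts was not tested.

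Summed over genes and set against all other nuclear protein-coding counts of the same library, the subunits did not separate the groups. They made up 2.57%, 1.61% and 2.11% of nuclear protein-coding counts in controls and 2.30%, 2.04%, 1.82% and 1.48% in knockouts. As a log2 ratio this was -5.57 ± 0.34 (SD, n = 3) and -5.70 ± 0.28 (SD, n = 4), a difference of -0.13. By complex the difference was -0.34 for II, -0.28 for III, -0.21 for IV and -0.01 for V, and the groups overlapped in each. Without control 1 the difference for all subunits was 0.03 and that for complex V 0.16, and without control 2 they were -0.31 and -0.19, so their sign rests on single libraries. Averaging log2 counts over genes instead of summing gave -0.37 for all, -0.56 for III and -0.35 for V. Within both groups the subunit share was lower in libraries where nuclear protein-coding genes took a larger part of all counts, from 2.57% in control 1 to 1.61% in control 2 and from 2.30% in knockout 1 to 1.48% in knockout 4. The spread between libraries of 1 group was therefore larger than the difference between groups, and its source was not tested.

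**Figure D4:**
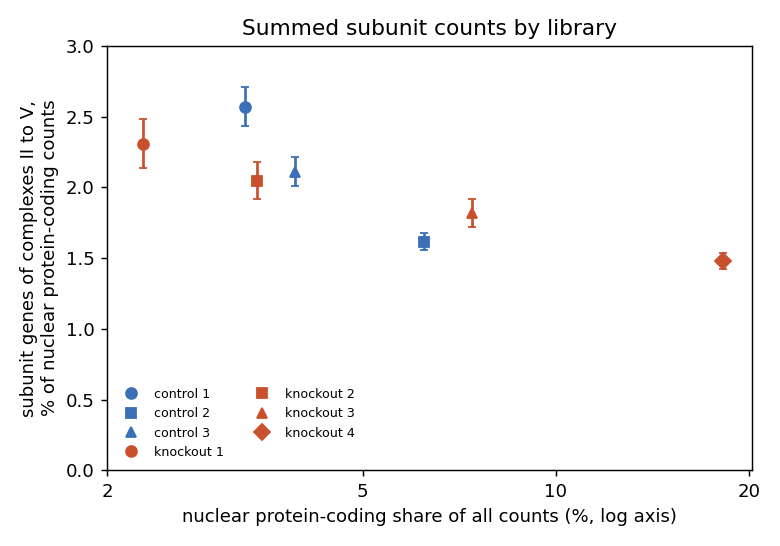
Summed subunit counts of complexes II to V as a percentage of nuclear protein-coding counts (95% Wilson intervals, counting error only), against the nuclear protein-coding share of all counts (log axis), 1 point per library. In both groups the subunit share is lower to the right, from 2.57% to 1.61% in controls and from 2.30% to 1.48% in knockouts.

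The complexes differed in how they divided the subunit counts among themselves. Complex V took 52.1%, 51.2% and 50.7% of all subunit counts in controls and 56.5%, 55.6%, 55.7% and 55.0% in knockouts, without overlap and higher in knockouts. Complex II took 12.6% to 13.8% in controls and 10.9% to 12.2% in knockouts, and complex III took 15.8% to 16.3% and 13.9% to 15.5%, both without overlap and lower in knockouts. Complex IV took 19.0% to 20.2% and 16.6% to 20.01%, with overlap. These shares add up to the whole, so a larger share of 1 means smaller shares of the others, and no test was made on them.

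The division turned on a single gene, Atp5b, which alone held 24.9% of all subunit counts. Its share was 22.8%, 22.5% and 21.2% in controls and 26.6%, 29.4%, 27.0% and 27.5% in knockouts, without overlap. That of Atp5a1, the next in counts, was 14.7% ± 0.372 (SD, n = 3) and 14.6% ± 1.13 (SD, n = 4). With Atp5b left out of both sums, an alternative chosen after the data were examined, complex V took 37.0% to 37.9% in controls and 37.1% to 40.7% in knockouts, and no complex separated the groups. An intron of Atp5b holds the small nucleolar RNA Snord59a, which had 5520, 491 and 870 counts in controls and 575, 3970, 831 and 372 in knockouts and shares no exon base with Atp5b. In each group the library with most Snord59a counts, control 1 and knockout 2, also had the highest Atp5b share. The order did not hold further down. Control 2 had fewer Snord59a counts than control 3 but a higher Atp5b share, and knockout 4 had the fewest but a share above those of knockouts 1 and 3. The part of Snord59a reads in the counts of Atp5b was not tested.

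**Figure D5:**
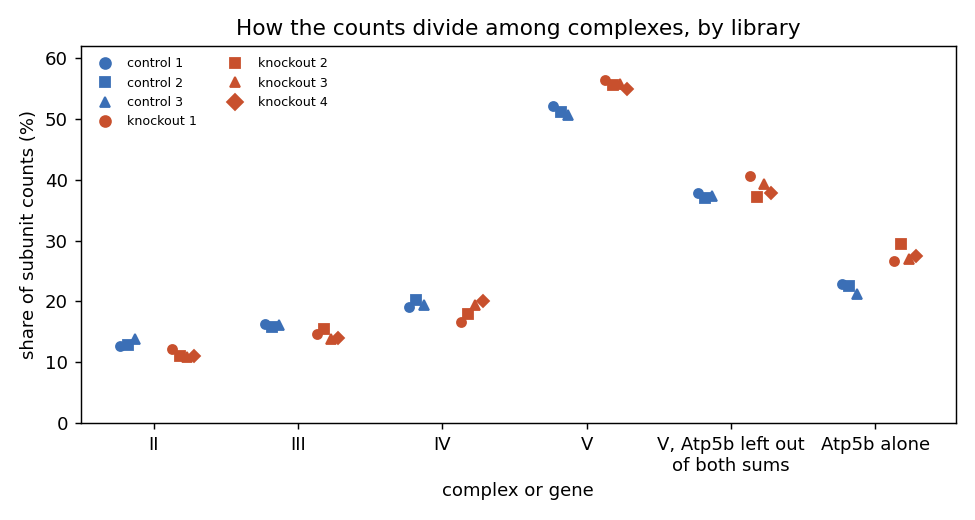
Share of the summed subunit counts (%) held by each complex, by complex V with Atp5b left out of both sums, and by Atp5b alone, in each library. Complex V lies at 50.7% to 52.1% in controls and 55.0% to 56.5% in knockouts, and the groups overlap once Atp5b is left out.

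Genes that work beside these subunits were read in the same fit. Of 45 assembly factors and electron carriers for complexes II to V, 5 had enough counts to be tested and 0 were called (edgeR), with 4 at an unadjusted p under 0.05 and 1 called by DESeq2 (over all genes tested the shares are 6.98%, 23.5% and 15.3% in that order). Atpif1, which inhibits ATP synthase running in reverse, had 2, 12 and 3 counts in controls and 12, 13, 11 and 25 in knockouts, and its CPM was higher in every knockout (log2 fold change 1.69 ± 0.48; edgeR adjusted p = 0.0750). Atpif1 entered the test through knockouts, where it is high, and 14.0% of all genes tested lay higher in every knockout. The alpha subunit of the electron transfer flavoprotein, Etfa, was at 12.4 ± 3.96 and 5.89 ± 1.64 CPM (SD, n = 3 and 4), and it entered the test through controls. Like Etfa, its dehydrogenase Etfdh (-0.62 ± 0.22) and Ndufa4, a complex IV subunit outside the symbol rule (-0.68 ± 0.23), were lower in every knockout, with edgeR adjusted p between 0.105 and 0.143. Of all genes tested, 9.90% lay lower in every knockout. Lrpprc, which stabilises mitochondrial mRNAs, had 0.29 ± 0.28. Of 37 nuclear subunits of complex I, 15 were tested, with a median of -0.75 and 14 negative fold changes. Of these 15, 5 (33.3%) lay lower in every knockout, 0 lay higher, and 7 (46.7%) had an unadjusted edgeR p under 0.05. The negative values and the overlap counts were thus not particular to complexes II to V. Of the 15, 1 fell, Ndufv3 (-1.31 ± 0.28, edgeR adjusted p = 0.0366, and 0.0627 without control 1). Ndufv3 too entered the test through controls, where it is high, and 1.73% of all genes tested were called lower.

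The mitochondrially encoded partners of these complexes had larger negative fold changes. For complex IV, mt-Co1 fell (-4.09 ± 0.90; edgeR adjusted p = 0.0377), while mt-Co2 had -2.75 ± 0.81 and mt-Co3 had -2.71 ± 0.79. Without control 1, mt-Co1 was at -4.69 ± 1.03 and no longer passed (edgeR adjusted p = 0.0598). The joint feature of mt-Atp8 and mt-Atp6 in complex V had -2.85 ± 0.81, and mt-Cytb in complex III had -1.80 ± 0.79. Whether nuclear and mitochondrial subunits differ in their change was not tested. On the same TMM scale the tested nuclear subunits of complexes II to V ran from -1.60 to 0.62.

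Under other models of the same counts more subunits passed, all of them lower in knockouts, and more of all genes passed too. When a covariate held the library's log2 ratio of microRNA plus small nucleolar RNA to nuclear protein-coding counts, edgeR called Cyc1, Uqcrfs1 and Cox7a1. These were 11.5% of the subunits tested, near the background of 11.6% lower (13.0% higher, 24.7% in all). With nuclear protein-coding genes fitted alone, it called Cyc1 and Cox7a1, 7.41% of 27 tested, against 8.83% lower and 11.1% higher. With both together it called 7 (Sdha, Sdhb, Cyc1, Uqcrfs1, Cox6a2, Cox6b1 and Cox7a1) of 27 tested, or 25.9%, against 15.6% lower and 14.2% higher (29.9% in all). The last 2 models were chosen after the data were examined.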

How the data were processed

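The authors deposited raw counts by gene, whole numbers in 1 table for each library. The submitters' processing notes name build mm10 and, with no role, featureCounts, Bowtie2, bedtools, DESeq2 1.14.1, R 3.3.2, SAMtools 1.3.1 and cutadapt 1.10. Not given in the sources used here were the annotation release, the strand setting and how multiply mapped reads were counted. Gene names and types came from other columns of a deposited table of the authors, and its test results were not used. All 48 genes were found in GENCODE M21, 39 with the same version, and lengths are of merged exons there.

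Genes with enough counts (edgeR's filterByExpr with a minimum count of 10, here 7.68 CPM in at least 3 libraries) were tested across the whole table with the quasi-likelihood test of edgeR 4.0.16 (R 4.3.3, TMM, group as the only term, two-sided, Benjamini-Hochberg, threshold 0.05), and with DESeq2 1.42.0 as an alternative. Isoform ratios had an exact permutation test over all 35 splits, in Python 3.11.15 with numpy 2.4.6, pandas 2.3.3 and scipy 1.17.1 (figures: matplotlib 3.10.9). The labels gave the groups and replicate numbers. Other scalings, filters, a covariate, a replicate block, another pseudocount (5) and each library left out were tried as alternatives. On simulated data with 200 genes changed, of which those tested were among 1237, the procedure called 3 of 56 genes at a log2 fold of 1, 25 of 50 at 2, 34 of 54 at 3 and 2 of 1077 unchanged genes.

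The genes, the lists and the comparisons were chosen with earlier results of these data known. Named were the genes called, the 3 with the highest CPM and the 2 tested with the smallest p in each complex, the isoform pairs, the mitochondrially encoded partners and, of the assembly and carrier list, those called and the 2 highest; all others were named after their values were seen. No libraries shared identical counts.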

Additional observations from a re-analysis of the deposited data

Results flagged for a closer look

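In 34 sets of 4 knockout values, 3 had 1 library far from the other 3 by Dixon's criterion at the 95% level, which chance meets in about 1 of 20 groups. Uqcrfs1, the Rieske protein of complex III, was at 33.6 CPM in knockout 1 and at 19.2 to 20.1 CPM in the other knockouts. Atp5g3, a subunit c gene of complex V, was at 61.1 CPM in knockout 1 and at 25.1 to 29.1 CPM in the others. The log2 ratio of Cox8b to Cox8a was -0.65 in knockout 2 and -1.90 to -1.72 in the others.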

How the results depend on the processing

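The number of subunits called lower, 1 in the report, was 0 under scaling to library totals, microRNA genes or mitochondrially encoded genes and with a minimum count of 20 (Cox7a1 then not tested), 2 with DESeq2, 3 with the covariate, 2 with nuclear protein-coding genes alone and 7 with both; leaving out 1 library gave 0 to 1. Of all genes tested, 6.64% were called lower with DESeq2, 11.6% with the covariate, 8.83% with nuclear protein-coding genes alone and 15.6% with both. Of the assembly and carrier genes, 0 of 5 tested were called in the report. With DESeq2 or the covariate 1 of 5 was called, and with nuclear protein-coding genes alone 1 of 6, each higher in knockouts. With both, 4 of 6 were called, 1 higher and 3 lower. The shares of all genes called higher were 8.70%, 13.0%, 11.1% and 14.2% in the same order of models. The median of the subunits relative to all genes, -0.38, ranged from -0.73 (without control 2) to -0.33 (without knockout 4), and was -0.63 without control 1. With all counts outside the subunits as denominator, the summed differences were 0.27 for all, 0.061 for complex II, 0.13 for III, 0.19 for IV and 0.39 for V, and the mean of log2 counts gave -0.35 for V. Same-numbered libraries did not pair (correlations of deviations 0.53, -0.80 and 0.32); with the replicate number as a block, 0 genes were called by edgeR (338 had an unadjusted p under 0.05, 2 of them subunits), and the isoform differences over 3 pairs, which leave out knockout 4, were -1.32 for Cox6a2/Cox6a1, -2.37 for Cox7a1/Cox7a2 and -1.45 for Cox8b/Cox8a (exact sign permutation, p = 0.25 each, the smallest possible). Without 1 library the isoform differences ran from -1.41 to -1.05 for Cox6a2/Cox6a1 and from -2.64 to -2.04 for Cox7a1/Cox7a2, with exact p of 0.0667 or 0.1, the smallest those designs allow; with the smaller tail doubled they stayed at -1.24 and -2.29 (exact p = 0.0571). Relative to the median of all genes, 3 subunits close to 0 changed sign without being called: Sdhd (0.0023 with the block, -0.71 to 0.014 without 1 library), Uqcrc2 (0.039 with the block, -0.34 to 0.10 without 1 library) and Atp5b (0.037 with the minimum count of 20, 0.047 under microRNA scaling, 0.013 with the covariate, -0.32 to 0.052 without 1 library). Of the other values of 17 named genes under 20 alternatives, 304 kept direction and side of the threshold, 10 lost it and 9 gained it. What can be seen is limited, as 22 of the 48 genes were below the count filter and a simulated log2 fold of 1 was called in 3 of 56 genes. The part of few counts in that low rate was not tested.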
